A study of Mus musculus with 24 samples.

Results

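The genes described here are 10 members of the bone morphogenetic protein (BMP) pathway, followed across all 24 arrays of the series. They were the type I receptors Bmpr1a, Bmpr1b and Acvr1, the type II receptor Bmpr2, the inhibitory SMADs Smad6 and Smad7, and the target genes Id1, Id2, Id3 and Id4. The genes were chosen by symbol. All 10 were found among the 18052 genes of the table for sorted stem cells and among the 20968 genes of the table for bulk tissue and factor-treated joints.

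The samples came from the distal femur, the knee end of the thigh bone, of C57BL/6J mice. Skeletal stem cells (mSSCs), progenitors of cartilage, bone and stroma, were sorted on 4 arrays from newborns at postnatal day 3, on 3 arrays from uninjured adults of 9 to 25 weeks and on 3 arrays from adults of that age range with microfractured (MF) joints. Microfracture perforates the bone under joint cartilage so that cells from below enter a defect. Bulk bone was measured on 3 arrays from newborns, 5 from uninjured adults and 3 from adults with microfracture. Stem cells of microfractured adult joints given PBS (the control), BMP2 or soluble VEGFR1 were measured on 1 array each. The sort kept cells positive for integrin alpha V and negative for 6C3, CD105, THY1, TIE2, TER119 and CD45, with 500 to 1000 cells per sample, so every sorted value rests on few cells and 2 rounds of amplification. Nothing in the labels ties replicates to different animals, and the p-values therefore reflect only how these samples varied, which may be technical. Precision is limited by how few arrays each group has.

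BMP ligands bind a complex of type I and type II serine-threonine kinase receptors, and the activated type I receptor phosphorylates SMAD1, SMAD5 and SMAD9, which enter the nucleus with SMAD4. The ID genes are classic direct targets of these SMADs, and their products, helix-loop-helix proteins without a DNA-binding region, hold E proteins away from DNA. SMAD6 and SMAD7 are induced by the same signal and restrain it at the receptors, and SMAD7 also restrains TGF-beta signalling. In the skeleton the pathway drives cartilage condensation, growth plate development and fracture repair.

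Blood cell markers and the low end of the signal differed between the sorted groups. The 10 myeloid markers summed to 2619 to 3473 intensity units on the newborn arrays, 37734 to 52169 on the uninjured adult ones and 7832 to 22110 on the microfractured ones, and all 8 tested were lower in newborns and in microfractured adults than in uninjured adults, 3 of them (S100a9, Csf1r and Ctss) not after microfracture with median centring, and Csf1r also not with quantile normalization. Ptprc, which encodes the CD45 that the sort excludes, had a mean intensity of 58.7 ± 21.1 (SD, n = 4), 3462 ± 367 (SD, n = 3) and 651 ± 132 (SD, n = 3) in the same order, highest in uninjured adults. Enpep, which encodes the excluded 6C3, was instead highest after microfracture, with means of 60.2, 172 and 401. Of the 5 sort marker genes tested, 0 were higher and 4 lower in newborns than in uninjured adults. After microfracture 1 of the 5 was higher and 3 were lower than in uninjured adults. The 5 erythroid markers present summed to 267 to 694, 6501 to 7516 and 1291 to 2336, and the 6 lymphocyte markers present to 91.6 to 245, 1956 to 2198 and 211 to 261. The 8 endothelial markers summed to 409.5 to 757, 1512.5 to 4071 and 380.2 to 1032, and no marker of any list was at 0. Skeletal stroma markers (7 genes) summed to 20264 to 22070, 36262 to 49427 and 27966 to 42316, and cartilage markers (6 genes) to 58115 to 69096, 39561 to 54481 and 39713 to 49808. Not all genes followed these sums. In newborns against uninjured adults 1 stroma gene was higher and 6 lower, and 4 cartilage genes were higher and 1 lower. Mean Sox9, of the stroma list, was 2777 and 802 in these groups, and Col2a1, of the cartilage list, 5773 and 14916. The median intensity per array was 182 to 210 on newborn, 315 to 349 on uninjured adult and 175 to 226 on microfractured arrays. The part of these shifts in the results below was not tested, and both comparisons with uninjured adults share the same 3 arrays.

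In sorted stem cells, Id1, Id3, Id4 and Smad7 were higher in newborns than in adults without injury, by 1.85-fold to 4.18-fold. After microfracture Acvr1, a type I receptor, was 1.74-fold higher than in uninjured adults, and Id4 was at 0.378 times the uninjured level. Neither of these calls held with quantile normalization, and part of the Id4 signal after microfracture lay below the filter value. Id1, a widely used readout of BMP signalling, did not pass the test between the adult groups. The signal filter kept 8 of the 10 genes for testing, and Bmpr1b and Smad6 were below it. Tests were made with limma on log2(intensity + 16), with Benjamini-Hochberg adjustment over all 10893 genes tested and a threshold of 0.05, and differences are given as log2 values with their standard error (SE).

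Of the 10 genes 8 were tested, and 4 of these were higher and 0 lower in newborns than in uninjured adults, where 54.6% of all genes passed (25.2% higher and 29.4% lower). In newborns against microfractured adults 2 were higher and 2 lower, where 36.7% of all genes passed (18.4% higher and 18.3% lower). After microfracture 1 was higher and 1 lower than in uninjured adults, where 33.1% of all genes passed (13.3% higher and 19.8% lower). That last count was 1 in all without microfractured replicate 3 or uninjured replicate 3, and 5 without microfractured replicate 1. The median difference of the 8 genes was 0.90, 0.67 and 0.33 on the log2 scale in these comparisons, beside -0.02, 0.06 and -0.04 over all genes tested. A filter at the 75th percentile also kept the 8 genes and left 5679 in all. Over these brighter genes the medians were 0.35, 0.10 and 0.24. There 40.0%, 24.7% and 21.7% were called higher and 19.3%, 21.6% and 8.96% lower. Newborn arrays lay wholly above the uninjured adult ones for 6 of the 8 genes and wholly below for 0, beside 28.5% and 32.5% of all genes. Newborn arrays lay wholly above the microfractured ones for 2 and wholly below for 2, beside 22.4% and 20.4% of all genes. Microfractured arrays lay wholly above the uninjured ones for 2 and wholly below for 1, beside 16.9% and 24.2% of all genes.

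**Figure D1:**
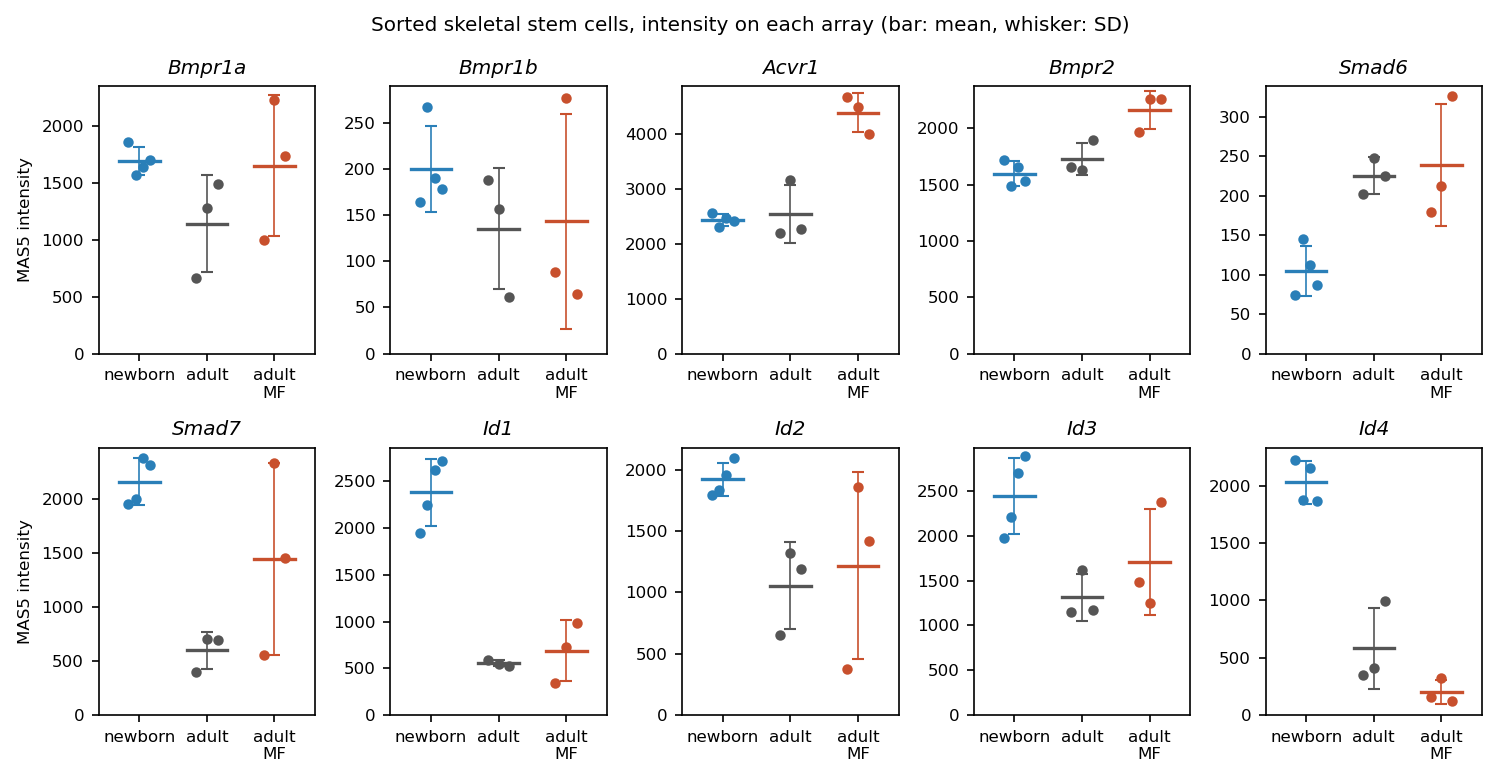
MAS5 intensity of each of the 10 genes on each sorted-cell array, by group, with the mean as a bar and the SD as a whisker; each panel has its own vertical axis from 0. Id1 and Id4 were at 1861 or more on all 4 newborn arrays and at 989.94 or less on all 6 adult arrays, and Acvr1 was at 4000 or more on all 3 microfractured arrays.

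**Figure D2:**
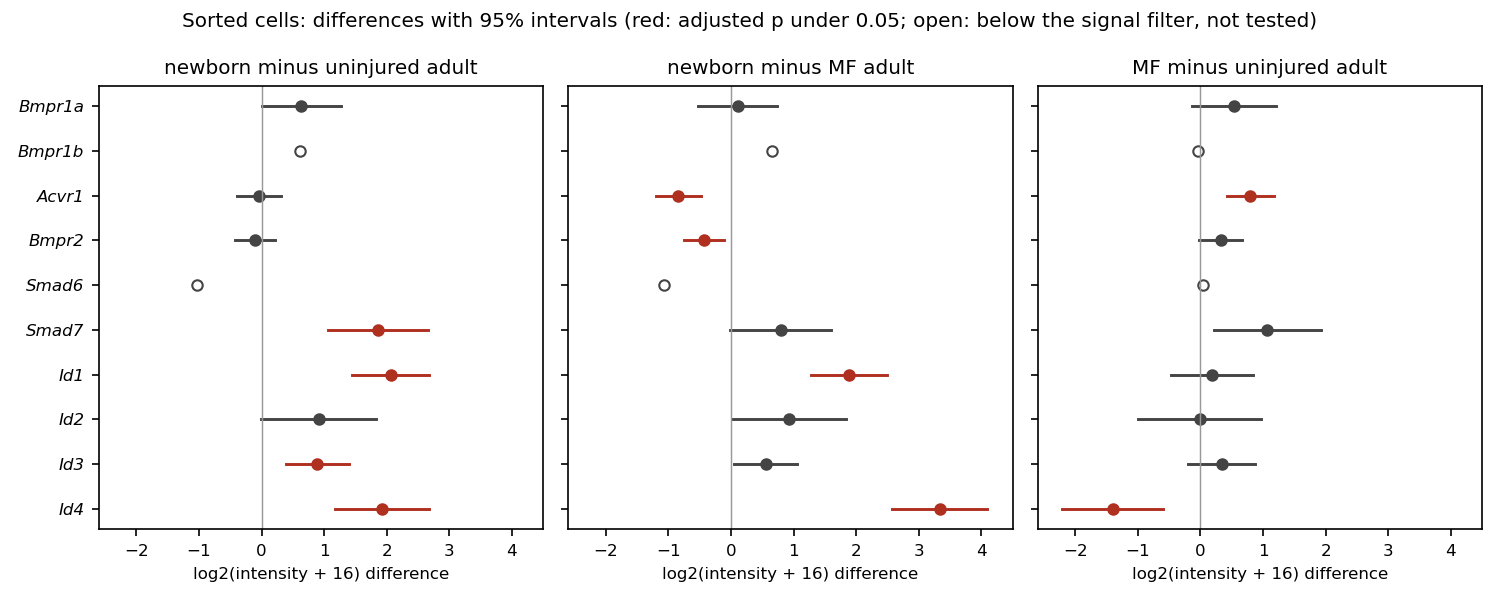
Differences in log2(intensity + 16) between sorted groups for the 10 genes, with 95% intervals from limma as bars; red points passed an adjusted p of 0.05 and open points were below the signal filter. Id1 and Id4 lie right of 0 in both newborn comparisons, and Acvr1 lies left of 0 against microfractured adults and right of 0 in the comparison of the adult groups.

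Among the receptors, Acvr1 set the microfractured group apart. It encodes ALK2, a type I receptor for several BMPs whose activating mutations cause fibrodysplasia ossificans progressiva in humans. Its intensity was 2564.5, 2309, 2479 and 2420 on the newborn arrays, 2204, 3163 and 2276 on the uninjured adult arrays, and 4680, 4499 and 4000 on the microfractured arrays. All 3 microfractured arrays lay above every other array, while the newborn values fell inside the range of the uninjured adults. The means were 2443 ± 107 (SD, n = 4), 2547 ± 534 (SD, n = 3) and 4393 ± 352 (SD, n = 3). Acvr1 was 0.80 ± 0.18 higher on the log2 scale in microfractured than in uninjured adults (adjusted p = 0.00602), and newborns differed from microfractured adults by -0.84 ± 0.17 (adjusted p = 0.00151). Newborn and uninjured adult levels differed by -0.04 ± 0.17 (adjusted p = 0.846, 95% interval -0.40 to 0.32). With quantile normalization the rise after microfracture was 0.35 and missed the threshold (adjusted p = 0.130), the highest over the settings tried other than leaving out an array, where the adjusted p ran from 0.000336.

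Bmpr2, the type II receptor of most BMPs, also had its highest intensities after microfracture, with smaller gaps. Its intensity was 1716, 1485, 1658 and 1532 in newborns, 1656, 1632 and 1895 in uninjured adults, and 1966, 2263 and 2259 after microfracture. The microfractured arrays again lay above all others. Bmpr2 was lower in newborns than in microfractured adults by -0.43 ± 0.15 (adjusted p = 0.0350), a call that was lost in 6 of the 10 fits that left out 1 array, those without any 1 newborn array, without microfractured replicate 2 and without replicate 3 (adjusted p up to 0.0948). It was also lost with median centring (-0.38, adjusted p = 0.137), without the variance trend (adjusted p = 0.0585) and with the replicate block (adjusted p = 0.118). Microfractured and uninjured adults differed by 0.32 ± 0.16 (adjusted p = 0.132) although their arrays did not overlap, or by -0.066 with quantile normalization (adjusted p = 0.774). Newborns and uninjured adults differed by -0.11 ± 0.15 (adjusted p = 0.544).

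Bmpr1a, the type I receptor ALK3, passed no test. Its intensity was 1861, 1573, 1644 and 1700 in newborns, 664, 1281 and 1489 in uninjured adults, and 1000, 2232 and 1735 after microfracture. Newborn values were tightly grouped and lay above all 3 uninjured adult values, whereas the microfractured arrays spanned both groups. The log2 differences were 0.64 ± 0.29 for newborn against uninjured adult (adjusted p = 0.0808), 0.53 ± 0.31 for microfractured against uninjured adult (adjusted p = 0.205) and 0.11 ± 0.29 for newborn against microfractured adult (adjusted p = 0.808). The first of these passed without microfractured replicate 1 (adjusted p = 0.0357) and without uninjured replicate 3 (0.86, adjusted p = 0.0416), and the second without microfractured replicate 1 (0.85, adjusted p = 0.0320), the others running up to 0.395 and 0.671. The first also passed with the 2 groups fitted alone (adjusted p = 0.0396).

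Bmpr1b, the type I receptor ALK6 known from digit cartilage, did not pass the signal filter. Its intensity was 164, 268, 190 and 178 in newborns, 188, 157 and 61.5 in uninjured adults, and 88.9, 278 and 64.2 after microfracture. The groups overlapped, and without the filter no comparison passed (adjusted p = 0.290, 0.950 and 0.380 for newborn against uninjured, microfractured against uninjured and newborn against microfractured).

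The inhibitory SMADs differed from each other. Smad7 had intensities of 1954, 1998, 2377 and 2312 in newborns, 400 to 705 in uninjured adults (400.1, 705.5 and 690.2), and 552, 2333 and 1450 after microfracture. Every newborn array was above every uninjured adult array, and the 3 microfractured arrays ran from the uninjured range to the newborn range. Smad7 was higher in newborns than in uninjured adults by 1.86 ± 0.37 (adjusted p = 0.00111), a fold of 3.64. Microfractured adults stood 1.07 ± 0.40 above uninjured adults with an adjusted p of 0.0549 (0.0470 without the filter), and newborns 0.79 ± 0.37 above microfractured adults with an adjusted p of 0.114. The microfractured value moved most with replicate 1. Without it the difference from uninjured adults was 1.64 ± 0.27 (adjusted p = 0.00112), while the fits without another array ran up to an adjusted p of 0.205. Without microfractured replicate 2 the newborn difference from microfractured adults was 1.25 (adjusted p = 0.0124), and without microfractured replicate 1 it was 0.22 (adjusted p = 0.526). Microfractured replicate 1 was the lowest of the 3 for 6 of the 10 genes. It also held the highest myeloid sum of its group, 22110 against 7832 and 14719 in replicates 2 and 3. Its stroma and cartilage sums, 42316 and 49808, were the highest of the group too. Uninjured replicate 1, with the highest myeloid sum of its group, was lowest for 7 of the 10 genes. Newborn replicate 1, with the lowest myeloid sum of its group, was lowest for 6. A link between the marker sums and these genes was not tested.

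Smad6, the inhibitory SMAD more selective for BMP receptors, was lowest in newborns. Its intensity was 74.3, 145, 112 and 86.4 in newborns, 202, 248 and 225 in uninjured adults, and 179, 212 and 326 after microfracture. No newborn array reached an adult one, but all newborn and uninjured adult values were below the filter value of 250.4 units. In that range the uninjured adult arrays read higher: their median for odorant and vomeronasal receptor genes was 117 to 211, against 16.7 to 27.2 in newborns and 14.5 to 46.3 after microfracture, a shift whose part in the Smad6 values was not tested. Without the filter, Smad6 differed by -1.03 ± 0.33 between newborns and uninjured adults (adjusted p = 0.0178) and by -1.08 ± 0.33 between newborns and microfractured adults (adjusted p = 0.0294).

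Id1 and Id4 had the widest differences of the 8 tested genes in both newborn comparisons. Id1 had intensities of 1944, 2244, 2625 and 2722 in newborns, 591, 543 and 526 in uninjured adults, and 342, 727 and 990 after microfracture. The newborn arrays stood apart from all adult arrays, and the uninjured adult values, which were close together, lay inside the spread of the microfractured ones. Means were 2384 ± 359 (SD, n = 4), 553 ± 33.9 (SD, n = 3) and 686 ± 326 (SD, n = 3). Id1 was higher in newborns by 2.06 ± 0.28 against uninjured adults (adjusted p = 7.82e-05) and by 1.88 ± 0.28 against microfractured adults (adjusted p = 0.000207). Between the adult groups the difference was 0.18 ± 0.30 (adjusted p = 0.683, 95% interval -0.47 to 0.83). Without microfractured replicate 1 it was 0.60 (adjusted p = 0.0344), and without replicate 3 it was -0.14 (adjusted p = 0.760), with adjusted p from 0.0344 to 0.879 over all such fits.

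Id4, a family member linked to osteoblast and neural differentiation in mice, ranked the groups newborn, uninjured adult, microfractured adult. Its intensity was 2225, 1877, 2149 and 1861 in newborns, 345, 408 and 990 in uninjured adults, and 159, 321.5 and 124 after microfracture. No array of one group entered the range of another, although the highest microfractured value was close to the lowest uninjured one. The microfractured values of 159 and 124 were below the filter value of 250.4 units. In that range the uninjured adult arrays read higher, with odorant and vomeronasal receptor medians of 117 to 211 against 14.5 to 46.3 after microfracture. The part of this shift in the Id4 difference was not tested. Id4 was higher in newborns by 1.93 ± 0.35 against uninjured adults (adjusted p = 0.000565) and by 3.33 ± 0.35 against microfractured adults (adjusted p = 1.13e-05), the latter a fold of 10.1. It was lower after microfracture than in uninjured adults, with a difference of -1.41 ± 0.37 (adjusted p = 0.0133). That call was lost without microfractured replicate 3 (-1.14, adjusted p = 0.0632) and without uninjured replicate 3 (-0.95, adjusted p = 0.0538), and the adjusted p ran from 0.00525 to 0.0632 over such fits. It was also lost with quantile normalization (adjusted p = 0.126), with median centring (-0.75, adjusted p = 0.104) and with the 2 groups fitted alone (adjusted p = 0.0548).

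Id3, a close relative of Id1 with which it acts in vessel and brain development in mice, had intensities of 1972, 2208, 2700 and 2892 in newborns, 1148, 1618 and 1173 in uninjured adults, and 1487, 1251 and 2376 after microfracture. Newborn and uninjured adult arrays did not overlap, and 1 microfractured array reached into the newborn range. The difference between newborns and uninjured adults was 0.89 ± 0.23 (adjusted p = 0.00594), which became 0.53 with quantile normalization (adjusted p = 0.0586, the highest of the settings tried other than leaving out an array). Id3 did not pass between newborns and microfractured adults (0.55 ± 0.23, adjusted p = 0.0807, or 0.82 and 0.0148 without microfractured replicate 3) or between the adult groups (0.34 ± 0.25, adjusted p = 0.318).

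Id2, an ID protein that also binds the retinoblastoma protein, had intensities of 1793.5, 1834, 1957 and 2094 in newborns, 653, 1317 and 1193 in uninjured adults, and 373, 1861 and 1419 after microfracture. Newborn arrays lay above all uninjured adult arrays, and the microfractured group spanned a wide range with replicate 1 lowest. No comparison passed: 0.91 ± 0.42 for newborn against uninjured adult (adjusted p = 0.0848), 0.93 ± 0.42 for newborn against microfractured adult (adjusted p = 0.106) and -0.01 ± 0.45 between the adult groups (adjusted p = 0.986). The first passed without microfractured replicate 1 (adjusted p = 0.00362) and the second without microfractured replicate 2 (1.37, adjusted p = 0.0234), with adjusted p up to 0.310 and 0.499 in the other such fits. The first also passed with the 2 groups fitted alone (adjusted p = 0.00426).

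The sequence just upstream of a start site is where SMAD motifs are often sought, so the 250 bases before the RefSeq start (GRCm38.p6) are given for 3 ID genes and for Acvr1. They were searched on both strands for GGCGCC, a GC-rich SMAD motif that is its own reverse complement, and CAGAC (reverse complement GTCTG), which holds the SMAD box, and matches are in capitals. The windows are Id2, chr12:25096093-25096342, minus strand; Id3, chr4:136143572-136143821, plus strand; Id4, chr13:48260866-48261115, plus strand; and Acvr1, chr2:58566829-58567078, minus strand.
Id2: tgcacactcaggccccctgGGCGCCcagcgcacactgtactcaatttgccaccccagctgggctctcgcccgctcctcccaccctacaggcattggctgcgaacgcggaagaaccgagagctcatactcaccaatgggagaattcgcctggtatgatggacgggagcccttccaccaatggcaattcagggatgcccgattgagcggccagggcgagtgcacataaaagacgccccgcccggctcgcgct
Id3: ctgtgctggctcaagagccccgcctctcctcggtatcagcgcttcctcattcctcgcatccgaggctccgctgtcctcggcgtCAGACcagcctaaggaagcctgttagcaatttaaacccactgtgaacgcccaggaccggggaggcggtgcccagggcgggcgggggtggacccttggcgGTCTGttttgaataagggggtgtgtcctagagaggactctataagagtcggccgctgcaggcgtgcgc
Id4: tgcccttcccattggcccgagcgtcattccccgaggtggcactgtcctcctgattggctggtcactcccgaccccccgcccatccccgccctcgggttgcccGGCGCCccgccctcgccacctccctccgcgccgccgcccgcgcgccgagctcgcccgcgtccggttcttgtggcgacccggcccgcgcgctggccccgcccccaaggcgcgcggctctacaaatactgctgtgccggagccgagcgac
Acvr1: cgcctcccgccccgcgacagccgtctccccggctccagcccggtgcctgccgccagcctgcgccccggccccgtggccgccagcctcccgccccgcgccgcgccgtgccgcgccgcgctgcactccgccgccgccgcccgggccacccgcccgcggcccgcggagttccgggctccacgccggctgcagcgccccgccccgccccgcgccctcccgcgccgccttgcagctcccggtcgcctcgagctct
Id2 and Id4 each held 1 GGCGCC, starting 231 and 148 bases before the start, and Id3 held 2 CAGAC matches. Matches were not particular to the ID genes, since Bmpr1a and Bmpr2 also held 1 GGCGCC each and 2 of the 3 Bmpr1b windows held CAGAC. The windows of Acvr1 and Smad6 held neither motif, and that of Acvr1 was 85.6% G or C, against a median of 52.4% over all windows. No window of Id1 or Smad7 was searched. GGCGCC occurred in 9.59% and CAGAC in 42.2% of 32851 promoter windows of this length, so these matches describe the letters and mark no site.

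The scale of the arrays mattered for the comparisons with uninjured adults. Centring each array on its median moved the median difference of all genes from -0.02 to 0.68 for newborns and from -0.04 to 0.61 for microfractured adults. All 8 genes were then called higher in newborns and 5 after microfracture, where 52.3% and 44.8% of all genes were called higher at that setting. Relative to those medians, Bmpr2 and Acvr1, at 0.59 and 0.66, sat close to the typical gene in the newborn comparison. With quantile normalization both were called lower in newborns instead (-0.53 and -0.53), so no direction is given for them there.

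**Figure D3:**
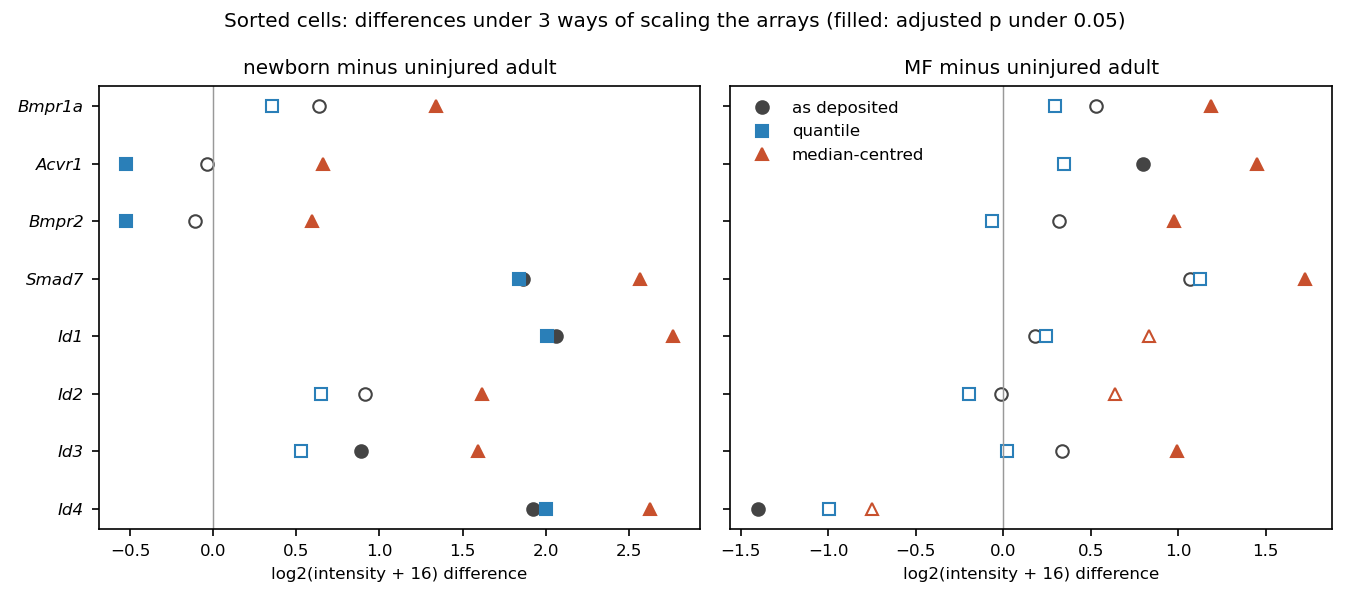
Differences in log2(intensity + 16) of the 8 tested genes for newborn and for microfractured against uninjured adult cells, with the arrays as deposited, after quantile normalization and after centring on each array's median; filled marks passed an adjusted p of 0.05. Smad7, Id1 and Id4 keep positive, filled marks in the newborn panel under all 3 scalings, whereas Acvr1 and Bmpr2 change side there.

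The genes whose profile over the 10 sorted arrays was most like that of Id1, by the root mean square difference of log2 values centred on each gene's mean, were Dhcr7 (0.211), Galnt5 (0.219) and Selenoh (0.261), out of 10885 ranked. Dhcr7, the last enzyme of cholesterol synthesis, had mean intensities of 855, 235 and 286 in newborns, uninjured and microfractured adults. Galnt5, a glycosyltransferase that starts mucin-type O-glycans, had 1358, 261 and 402. Selenoh, a selenoprotein, had 1424, 373 and 376. Within the 10 genes, Bmpr2 and Acvr1 were the closest pair of tested profiles at 0.277.

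The rest of the pathway was read from 46 listed genes, of which 35 could be tested in sorted cells. In newborns against uninjured adults 10 were higher and 13 lower, beside 25.2% and 29.4% of all genes. After microfracture 6 were higher and 8 lower than in uninjured adults, beside 13.3% and 19.8% of all genes. In newborns against microfractured adults 6 were higher and 9 lower, beside 18.4% and 18.3% of all genes. Of the 23, 14 and 15 pathway calls, 13, 6 and 13 also passed in the same direction after quantile normalization, and 19, 8 and 13 after median centring. The ligand Gdf5, a marker of joint-forming cells, had mean intensities of 770 ± 122 (SD, n = 4) in newborns, 190 ± 74.4 (SD, n = 3) in uninjured adults and 609 ± 143 (SD, n = 3) after microfracture. It was higher than in uninjured adults in both, by 1.98 ± 0.26 (adjusted p = 5.40e-05) and 1.63 ± 0.28 (adjusted p = 0.00192). Bmp5 was lower after microfracture than in uninjured adults (-0.71, adjusted p = 0.0126) and higher in newborns than after microfracture (1.12, adjusted p = 0.000270), and the first of these was -0.06 with median centring (adjusted p = 0.840). Bmp4 was lower in newborns than after microfracture (-1.11, adjusted p = 0.0368), and Gdf2 lower in newborns than in uninjured adults (-2.03, adjusted p = 0.00626). With quantile normalization neither passed (-0.93, adjusted p = 0.125, and -1.10, adjusted p = 0.0671), nor did Bmp4 with median centring (-1.07, adjusted p = 0.0715). Mean Gdf2 was 76.7 in newborns, below the filter value of 250.4 units, where the uninjured adult arrays read higher. The part of this shift in the Gdf2 difference was not tested.

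The secreted antagonists, which bind BMPs outside the cell, moved in both directions. Grem1 had mean intensities of 899 ± 88.3 (SD, n = 4), 683 ± 82 (SD, n = 3) and 153 ± 36.1 (SD, n = 3), with the microfractured arrays below all others. It was lower after microfracture than in uninjured adults (-2.07 ± 0.22, adjusted p = 0.000443) and higher in newborns than after microfracture (2.46 ± 0.20, adjusted p = 1.66e-06). Nbl1 ran the other way, with 76.4 ± 44.8 (SD, n = 4), 812 ± 42.8 (SD, n = 3) and 1927 ± 483 (SD, n = 3), and was lower in newborns in both comparisons (-3.31, adjusted p = 1.15e-05, and -4.51, adjusted p = 1.09e-06). Bmper, which binds BMPs and can also aid signalling, was higher in newborns (1.79, adjusted p = 5.78e-06) and after microfracture (0.76, adjusted p = 0.00949) than in uninjured adults. Grem1 after microfracture and Nbl1 in newborns had means below the filter value of 250.4 units, where the uninjured adult arrays read higher. The part of this shift in their differences from uninjured adults was not tested.

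Of 7 tested SMADs and their regulators, 4 were higher and 0 lower in newborns than in uninjured adults. Over all genes the shares were 25.2% and 29.4%. Smad5, 1 of the 4, did not pass with quantile normalization (0.30, adjusted p = 0.183). Smad4, the common partner SMAD, was higher in newborns by 0.99 ± 0.16 against uninjured adults (adjusted p = 0.000221) and by 0.54 ± 0.16 against microfractured adults (adjusted p = 0.0158). Ski, a repressor of SMAD-dependent transcription, was higher than in uninjured adults by 0.70 in newborns (adjusted p = 0.00343) and by 0.80 after microfracture (adjusted p = 0.00626), but with quantile normalization the differences were 0.23 (adjusted p = 0.226) and 0.33 (adjusted p = 0.163). Of 7 other receptors and coreceptors, 1 was higher and 4 lower in newborns than in uninjured adults, beside the same 25.2% and 29.4%. Among the 4 were Tgfbr3 (-1.65, adjusted p = 7.33e-06) and Eng (-1.70, adjusted p = 0.000406), which encodes the CD105 that the sort excludes. After microfracture 0 were higher and 3 lower, among them Eng (-1.69, adjusted p = 0.00282) and Hjv (-1.97, adjusted p = 0.0266), the latter not passing with quantile normalization (adjusted p = 0.0858) or median centring (adjusted p = 0.0549). Mean Eng was 132 in newborns and 130 after microfracture, and mean Hjv 132 after microfracture, below the filter value of 250.4 units. In that range the uninjured adult arrays read higher, as given above for Smad6. The part of this shift in the Eng and Hjv differences was not tested. Against microfractured adults, Tgfbr3 (-1.56, adjusted p = 1.27e-05) and Rgmb (-1.41, adjusted p = 0.000140) were lower in newborns.

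Other targets of the pathway were read from 3 genes that could be tested. With the arrays as deposited, all 3 were lower in newborns than in uninjured adults, with Dlx3 at -2.12 (adjusted p = 0.00147) and Hey1 at -0.68 (adjusted p = 0.0153). After microfracture Hey1 (-0.86, adjusted p = 0.0128) and Dlx5 (-0.72, adjusted p = 0.0229) were lower than in uninjured adults, and Dlx3 was lower in newborns than after microfracture (-2.68, adjusted p = 0.000439). The directions of Hey1 and Dlx5 depended on the scale of the arrays: with median centring their newborn differences from uninjured adults were 0.02 (adjusted p = 0.931) and 0.10 (adjusted p = 0.681), and after microfracture they were -0.20 (adjusted p = 0.463) and -0.07 (adjusted p = 0.810). With quantile normalization the newborn calls of Hey1, Dlx3 and Dlx5 missed the threshold (adjusted p = 0.0731, 0.0712 and 0.0516). Mean Dlx3 was 57.0 in newborns, below the filter value of 250.4 units, where the uninjured adult arrays read higher. The part of this shift in the Dlx3 difference from uninjured adults was not tested. Of the 3 E proteins that ID proteins bind, Tcf12 was higher in newborns (0.62, adjusted p = 0.00950) and after microfracture (0.66, adjusted p = 0.0175) than in uninjured adults, and Tcf4 was lower in newborns than after microfracture (-0.53, adjusted p = 0.0377). With quantile normalization Tcf12 did not pass in either comparison (adjusted p = 0.241 and 0.193), and with median centring Tcf4 did not (adjusted p = 0.136).

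Bulk bone was given as an activity score between -100 and 100 per probe set, and a gene was read from its single-symbol probe set with the highest mean. Neither the computation of the score nor the meaning of 0 is given in the sources used here, so differences are in score points. In bulk tissue fewer cells of a type and less RNA per cell cannot be told apart. The 10 myeloid markers had a mean score of -35.0 to -12.0 on newborn, 40.4 to 56.7 on uninjured and 37.5 to 42.7 on microfractured arrays, 7 of 10 being lower in newborns than in uninjured adults, and the 6 cartilage markers had 78.9 to 83.6, 24.2 to 47.0 and 24.8 to 40.9, 2 of 6 being higher in newborns. The part of this in the results was not tested.

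Of the 8 genes tested in bulk bone, Bmpr1b alone passed. It scored 70.07, 60.94 and 60.26 in newborns, -17.2, -15.1, 19.3, -9.48 and -38.4 in uninjured adults, and 31.0, 18.0 and 44.4 after microfracture. Newborn arrays lay above all adult arrays, and the microfractured arrays lay between, with 1 uninjured array inside their range. Bmpr1b was 75.9 ± 16.9 points higher in newborns than in uninjured adults (adjusted p = 0.0268), where 6.43% of all genes passed, 2.02% higher and 4.4% lower. The call was lost without newborn replicate 1 or 3 and without uninjured replicate 2, 4 or 5, with adjusted p from 0.0321 to 0.0652 over the 11 fits that left out 1 array. Microfractured adults stood 43.3 ± 17.3 points above uninjured adults with an adjusted p of 0.464. All 3 Bmpr1b probe sets were higher in newborns, by 34.6 to 76.0 points.

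Bmpr1a scored 95.4, 92.7 and 84.0 in newborns, 0.42, 47.3, 56.2, 41.3 and 3.97 in uninjured adults, and 49.5, 54.0 and 62.9 after microfracture. Newborn arrays lay above all adult arrays, yet the 60.8 ± 16.9 points over uninjured adults missed the threshold (adjusted p = 0.0585), which was passed without the filter (adjusted p = 0.0431) and without the variance trend (adjusted p = 0.0377). Its 6 probe sets did not agree, with newborn differences from -75.2 to 73.3 points, 5 of them positive. Smad7 scored 58.3, 63.2 and 66.3 in newborns, 24.8, 27.2, 28.0, 52.7 and 48.8 in uninjured adults, and -48.7, 39.5 and 29.4 after microfracture, so newborns were again highest without passing (26.3 ± 22.2 points over uninjured adults, adjusted p = 0.552). The other Smad7 probe set was near the lower bound, with means of -83.3, -89.5 and -97.1 in the same order. On it newborns stood 6.19 points above uninjured adults.

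Id1, with 1 probe set, was below the filter in bulk bone. It scored -52.8, -25.4 and 12.2 in newborns, -54.8, -97.0, -95.0, -92.2 and -93.6 in uninjured adults, and -99.1, -96.1 and -84.7 after microfracture. Newborn arrays lay above all adult arrays, newborn replicate 1 only just above uninjured replicate 1. Without the filter the difference from uninjured adults was 64.5 ± 14.8 points (adjusted p = 0.0319), and without uninjured replicate 1 the uninjured mean was -94.5 ± 2.02 (SD, n = 4) in place of -86.5 ± 17.8 (SD, n = 5).

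Acvr1 was near the upper bound of the score. It scored 99.2, 99.7 and 96.2 in newborns, -3.67, 76.8, 77.1, 87.1 and 98.4 in uninjured adults, and 71.6, 80.9 and 71.8 after microfracture. Apart from uninjured replicate 1 at -3.67, all arrays were at 71.57 or more, and newborn arrays did not overlap the microfractured ones. Microfractured and uninjured adults differed by 7.61 ± 18.9 points (adjusted p = 0.921), or by -10.1 without uninjured replicate 1 (adjusted p = 0.635). All 3 Acvr1 probe sets were higher after microfracture than in uninjured adults, by 7.61 to 73.2 points, while newborns stood above microfractured adults on 2 of them and below on 1 (from -25.2 to 53.6 points).

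The remaining 5 genes overlapped between newborns and uninjured adults. Bmpr2 ranged from -69.2 to 82.5, Id2 from -74.0 to 15.9, Id3 from -54.4 to 64.5, Id4 from -4.77 to 47.3 and Smad6 from -98.3 to -9.90 over the 11 arrays. Id2 showed a difference of -23.6 ± 20.9 points for newborn against uninjured adult on the probe set used (adjusted p = 0.574), while 2 of its 3 probe sets were positive. Between microfractured and uninjured adults 0 of the 8 genes passed, as did 0% of all 16373 genes tested with limma. At an unadjusted p under 0.05 the counts were 1 of the 8, Bmpr1b, and 1608 of all genes. Between newborns and microfractured adults 0 of the 8 passed where 1.45% of all genes did in limma (0.403% higher and 1.05% lower), and 1 of the 8, Smad7, had an unadjusted p under 0.05, as did 15.2% of all genes. Newborn arrays lay wholly above the microfractured ones for 5 of the 8 genes and wholly below for 0, beside 8.37% and 11.4% of all genes. They lay wholly above the uninjured ones for 3 and wholly below for 0, beside 7.1% and 9.23%, and the microfractured and uninjured arrays were apart for 0 of the 8, beside 5.02% of all genes with microfractured arrays above and 4.59% with them below. Of the 35 other pathway genes tested in newborn against uninjured adult bulk bone, Bmper alone passed, where 6.43% of all genes did. It differed by 74.0 ± 18.8 points (adjusted p = 0.0416), or 71.2 points with quantile normalization (adjusted p = 0.0562).

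**Figure D4:**
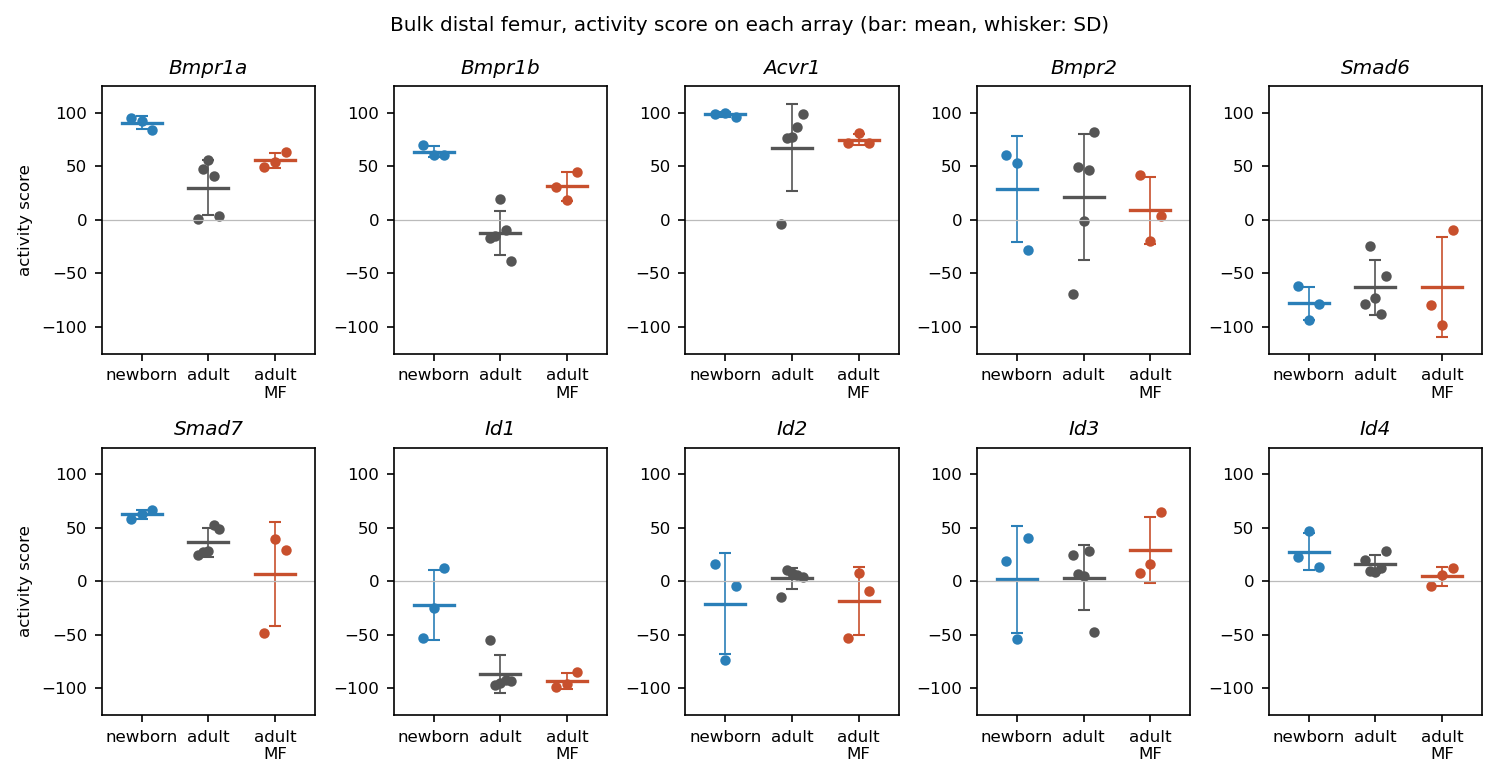
Activity score, from -100 to 100, of the 10 genes on each bulk array, by group, with the mean as a bar and the SD as a whisker. Newborn points lie above all adult points for Bmpr1a, Bmpr1b, Smad7 and Id1, and a single uninjured adult array lies apart for Acvr1 and Id1.

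The 3 factor arrays asked how stem cells of microfractured joints differed after BMP2 or VEGFR1 was given in place of PBS. VEGFR1, given here in soluble form, is a receptor that binds VEGF, and BMP2 is a ligand of the receptors above. Neither the ID genes nor the inhibitory SMADs were 50 points or more apart. With 1 array per treatment there is no test, and the threshold of 50 points was passed by 0 of the 10 genes in each comparison, where 11.6% of all genes passed it for BMP2 against PBS, 10.6% for VEGFR1 against PBS and 11.7% for BMP2 against VEGFR1.

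Under PBS, BMP2 and VEGFR1, Id1 scored 26.9, 38.4 and 25.3. Id2 scored 1.90, 6.52 and -18.2, and Id3 scored 62.6, 49.2 and 48.6. Id4 scored -29.7, -46.3 and -36.6. On the probe sets used, Id1 and Id2 were thus highest with BMP2, while Id3 and Id4 were highest with PBS. Other probe sets did not all follow: BMP2 was above PBS on 2 of the 3 Id2 probe sets and on 1 of the 3 Id4 probe sets. Smad7 scored 23.0, 44.6 and 39.4, and Smad6 scored 5.77, 13.4 and -27.6. On its other probe set Smad7 scored 80.35, 82.74 and 77.99, a smaller gap between BMP2 and PBS. Both inhibitory SMADs were highest with BMP2, and the 41.0 points between BMP2 and VEGFR1 for Smad6 were the widest gap among the probe sets used for the 10 genes. Among the receptors, Acvr1 (96.2, 95.8 and 96.7) and Bmpr2 (91.5, 85.1 and 91.7) stayed near the upper bound on the probe sets used, Bmpr1b scored 91.3, 68.0 and 83.8, and Bmpr1a 49.1, 62.8 and 44.1. Another Acvr1 probe set scored 99.2, 99.7 and 99.7, but the third scored 27.1, 69.2 and 22.9. The other Bmpr2 probe sets scored 18.8, 19.5 and 36.1, and -59.7, -90.8 and -92.7. For Bmpr1b, BMP2 was above PBS on 2 of its 3 probe sets. The median absolute difference of the 10 genes was 12.4 points for BMP2 against PBS and 7.19 points for VEGFR1 against PBS, beside 12.6 and 11.4 over all genes. Over all 26 probe sets of the 10 genes, 0 differed by 50 points from PBS with either factor, and 1 did between the factors, a Bmpr1a probe set at 11.7 with BMP2 and -61.5 with VEGFR1, 73.2 points apart.

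**Figure D5:**
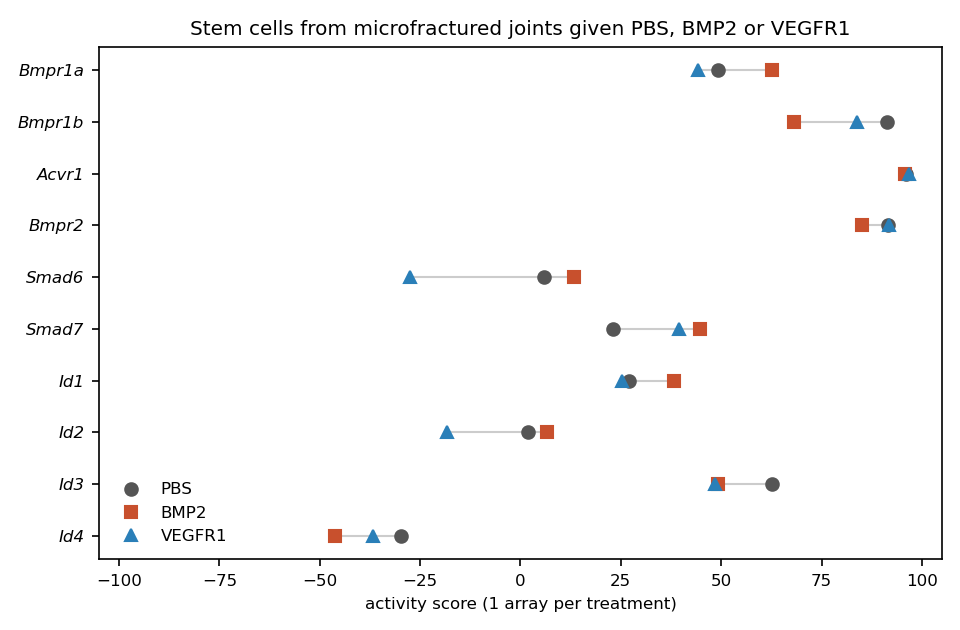
Activity score of the 10 genes in stem cells of microfractured joints given PBS, BMP2 or VEGFR1, 1 array each, with a grey line over the range per gene. On the 1 probe set used per gene none spans 50 points, and Smad6 has the widest range, from -27.6 with VEGFR1 to 13.4 with BMP2.

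Of 43 other pathway genes in that table, 2 were at least 50 points higher and 3 lower with BMP2 than with PBS. Over all genes 5.24% were that much higher and 6.36% that much lower. The pathway counts were 1 and 1 for VEGFR1 against PBS, beside 5.39% and 5.23% of all genes. For BMP2 against VEGFR1 they were 4 and 4, beside 5.35% and 6.32%. Nog, which encodes the BMP antagonist noggin, went from -40.4 with PBS to 62.9 with BMP2, 103 points apart, and Twsg1, a BMP-binding protein, from 87.1 to 18.0, -69.2 points apart. Between VEGFR1 and PBS, Tcf12 was 65.1 points higher and Msx2, a BMP-responsive homeobox gene, -54.2 points apart. Between BMP2 and VEGFR1, Tcf4 stood -74.1 points and Eng 73.3 points apart. These values describe single arrays, with no spread to set them against.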

How the data were processed

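Gene expression was measured on 24 arrays, after 2 rounds of amplification per the labels' protocols. MAS5 intensity per gene on a linear scale was deposited for the 10 sorted-cell arrays, MAS5 being named in the submitters' processing notes. For 11 bulk and 3 factor arrays the authors deposited an activity score for each probe set, whose computation is not described in any source used here. The members and lists were chosen with earlier results of these data known.

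The test used log2(intensity + 16), and folds on this scale are too small for dim genes. Scores were not transformed and came from the single-symbol probe set with the highest mean. A gene was kept where more than 250.4 intensity units, or a score above -14.5 (medians of all values), was reached in at least 3 arrays, leaving 10893 and 16373 genes. The filter lets a gene pass through 1 high group alone. The 3 groups of a table were fitted together with limma 3.58.1 in R 4.3.3 (eBayes with a variance trend on lmFit contrasts, 2-sided), with Benjamini-Hochberg adjustment over all genes tested. Groups came from the sample titles. The code was tested on simulated data. Alternatives were pseudocounts, filters, quantile normalization, median centring, no variance trend, a replicate block, pairs of groups fitted alone, mean probe sets, a lower score threshold and leaving out each array.

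Same-numbered arrays of different groups deviated from their group means with correlations of -0.05 to 0.23 in sorted cells and -0.21 to 0.11 in bulk bone, so the numbers were not taken to pair the samples. All 10 members were named. Other pathway genes were named as at most 2 called genes with the smallest p per role and comparison, or, on the factor arrays, as the 2 with the largest difference past 50 points either way. Smad5 was named besides, for a call lost with quantile normalization. Marker sums used lists of 46 genes in the sorted-cell table. Promoter windows came from RefSeq (GRCm38.p6) for 8 members, all but Id1 and Smad7, which were not searched.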

Additional observations from a re-analysis of the deposited data

Results flagged for a closer look

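In uninjured adult bulk bone, replicate 1 stood far from the other 4 arrays for 3 of the 10 genes. Acvr1 was lowest there at a score of -3.67, Id1 was highest at -54.8, and Id2 was lowest at -14.7. In all, 20 groups of 4 to 10 arrays were examined, and chance alone flags about 1 in 20 such groups. Acvr1 also ran in opposite directions in the sorted and bulk arrays between newborns and microfractured adults. The difference was -0.84 on the log2 scale in sorted cells and 23.6 score points in bulk bone, with no overlap of the groups in either. The bulk direction held for 2 of the 3 Acvr1 probe sets, and on the third newborns scored -5.35 and microfractured adults 19.9, lower in newborns as in sorted cells. The probe set used was near the upper bound of the score. The difference between the 2 tables was not tested, since they have different units.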

How the results depend on the processing

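The newborn calls of Id1, Id4 and Smad7 against uninjured adults, and of Id1, Id4 and Acvr1 against microfractured adults, held under each alternative run. The count of members called after microfracture in sorted cells (2 as reported) was 0 with quantile normalization, 5 with median centring, 1 with the 2 groups fitted alone, and 1 to 5 when 1 array was left out. For sorted newborn against uninjured adult cells it was 4, and 8 with median centring and 4 to 6 when 1 array was left out. There, quantile normalization lost the call of Id3 and added Bmpr2 and Acvr1 as lower in newborns. Fitting the 2 groups alone added Bmpr1a and Id2 as higher. For bulk newborn against uninjured adult bone it was 1, and 3 without the filter, 2 without the variance trend, 0 with the replicate block, and 0 to 1 when 1 array was left out. On the factor arrays a threshold of 25 points was passed by 1 gene, Smad6, for VEGFR1 against PBS and by 1, again Smad6, for BMP2 against VEGFR1, beside 28.0% and 30.5% of all genes.

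Signs turned for differences that were not called as reported. In sorted cells, Id2 after microfracture was 0.0014 with a pseudocount of 64 and 0.64 with median centring, and Bmpr2 was -0.066 with quantile normalization. Newborn against uninjured adult differences of Bmpr2 and Acvr1 were 0.59 and 0.66 with median centring. In bulk bone, newborn against microfractured Id2 was 2.68 with quantile normalization. With the replicate block, microfractured against uninjured Bmpr2 in bulk was 15.8, and the block also ended the sorted newborn against microfractured call of Bmpr2 (-0.41, adjusted p = 0.118), ended the bulk call of Bmpr1b (68.1, adjusted p = 0.212) and brought Smad7 after microfracture past the threshold (adjusted p = 0.0269). Over all genes in bulk newborn against uninjured adult bone the block left 0 of 1052 calls, and in newborn against microfractured bone 0 of 238.

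Leaving out 1 array gave these ranges where a sign turned. In sorted cells, Id1 and Id2 after microfracture ran from -0.14 to 0.60 and from -0.46 to 0.68, Bmpr1a in newborn against microfractured adults from -0.22 to 0.36, and Acvr1 in newborn against uninjured adults from -0.14 to 0.12. In bulk bone, newborn against uninjured adult Bmpr2, Id2 and Id3 ran from -15.6 to 35.4, -42.1 to 2.89 and -21.0 to 26.6, newborn against microfractured Id2 and Id3 from -20.9 to 24.0 and -46.8 to 0.78, and microfractured against uninjured Acvr1 and Bmpr2 from -10.1 to 15.4 and -35.6 to 2.33.

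Over all genes in sorted cells, the calls after microfracture numbered 3606 (1453 higher and 2153 lower), and 6242 (1549 and 4693) without the filter, 5811 (4882 and 929) with median centring, 2807 (1492 and 1315) with quantile normalization, 1742 (1233 and 509) at a filter on the 75th percentile and 1981 with the 2 groups fitted alone. Those of newborns against uninjured adults numbered 5945 (2743 higher and 3202 lower), and 9549 (2840 and 6709) without the filter, 7491 (5702 and 1789) with median centring and 3369 (2272 and 1097) with that stricter filter. Newborn against microfractured calls numbered 3997, and 2628 with that stricter filter. In bulk bone, newborn against microfractured calls numbered 238, and 418 without the variance trend, 398 with mean probe sets, 134 with the stricter filter and 0 with the 2 groups fitted alone. Newborn against uninjured adult calls numbered 1052, and 700 with the stricter filter, and microfractured against uninjured calls 0, and 2 with the 2 groups fitted alone. The causes were not tested. Signal below the filter limits Smad6 and Bmpr1b in sorted cells and Id1 and Smad6 in bulk bone.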
